A study of Mus musculus with 20 samples.

Results

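Closing promoters were 496 accessible regions near a transcription start site (TSS) that the peak lists held with E2 and at 4 and 8 h after its withdrawal, and that the lists of 72, 96 and 120 h no longer held. They came from ATAC-seq, which uses the transposase Tn5 to tag accessible DNA, on mouse ER-Hoxa9-Lys-GFP cells of strain C57BL/6 cultured in medium with stem cell factor (SCF). The 20 samples were 2 with E2 (0 h) and 2 at each of 4, 8, 12, 24, 36, 48, 72, 96 and 120 h after the cells were washed and moved to medium without E2. All groups, the 0 h samples included, carried the ER-Hoxa9 fusion and the Lys-GFP reporter. Both replicates of a time were transposed from split nuclei and share 1 deposited peak list, so the data give 10 lists, no spread between replicates and no p-value.

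Peaks of all 10 lists that overlapped by at least 1 bp were merged into 88351 regions. Members were chosen by presence in the lists and by distance to the TSS: a region was kept when it was listed at 0, 4 and 8 h, absent at 72, 96 and 120 h, and had its widest peak within 1000 bp of the TSS deposited with it. The rule therefore fixed the presence in these 6 lists, which is given here as a description only. Of 12780 promoter regions, 8267 were listed at all of 0, 4 and 8 h, and 496 of these closed, a background of 6.00% (95% Wilson interval 5.51 to 6.53%, which covers counting error only). The closing promoters belonged to 486 genes. Among distal regions, farther than 1000 bp from a TSS, 10568 of 31523 met the same rule, or 33.5%. "Closing" means that no peak was listed, and a peak below the authors' calling threshold cannot be told apart from closed chromatin. The lists of 72, 96 and 120 h were also shorter, with 46837, 29806 and 23620 peaks against 55261 at 0 h. Of these peaks, 10359, 9580 and 8968 lay within 1000 bp of a TSS, against 10607 at 0 h. With the widest 23620 peaks of each list, 225 promoters met the rule. How much of the closing follows from the shorter lists was not tested.

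As background, the homeodomain factor Hoxa9 works with Meis1 and other factors to hold myeloid progenitors in an immature, self-renewing state. In an ER fusion, E2 keeps the factor in its active form, and removing E2 lets such cells mature along the myeloid path. Multipotent progenitors often hold promoters of several blood lineages accessible at a low level, and these are lost as cells commit. Promoters of broadly expressed genes usually lie in CpG islands and stay open in nearly every cell type.

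Sequences of 6 promoters are given to show the range of base composition among closing promoters and those listed throughout. Pf4 and Kcnn4 are closing promoters with few CpG dinucleotides. Mast2 and Rnf4 are closing promoters with many, and Kdm2b, a histone demethylase gene, and Prmt6, an arginine methyltransferase gene, are promoters held by all 10 lists. Each is the RefSeq window of 300 bases on GRCm38.p6 (the mm10 sequence), written 5′ to 3′ on the gene's strand, with 250 bases before the TSS and 50 after it. Their positions are chr5:90772185-90772484 (plus strand) for Pf4, chr7:24370013-24370312 (plus strand) for Kcnn4, chr4:116464132-116464431 (minus strand) for Mast2, chr5:34336000-34336299 (plus strand) for Rnf4, chr5:122900318-122900617 (minus strand) for Kdm2b and chr3:110250950-110251249 (minus strand) for Prmt6. Capitals mark matches on either strand to the motifs listed further on.
Pf4: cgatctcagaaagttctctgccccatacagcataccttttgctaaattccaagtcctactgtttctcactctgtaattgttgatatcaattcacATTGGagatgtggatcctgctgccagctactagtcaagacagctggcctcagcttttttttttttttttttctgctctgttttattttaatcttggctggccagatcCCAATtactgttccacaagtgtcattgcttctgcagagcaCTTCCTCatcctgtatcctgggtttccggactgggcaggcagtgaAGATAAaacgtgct
Kcnn4: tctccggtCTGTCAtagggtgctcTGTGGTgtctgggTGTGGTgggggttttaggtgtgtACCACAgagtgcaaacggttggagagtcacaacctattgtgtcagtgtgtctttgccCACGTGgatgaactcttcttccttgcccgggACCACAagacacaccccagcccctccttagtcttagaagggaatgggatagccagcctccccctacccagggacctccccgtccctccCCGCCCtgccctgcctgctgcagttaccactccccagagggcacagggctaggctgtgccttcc
Mast2: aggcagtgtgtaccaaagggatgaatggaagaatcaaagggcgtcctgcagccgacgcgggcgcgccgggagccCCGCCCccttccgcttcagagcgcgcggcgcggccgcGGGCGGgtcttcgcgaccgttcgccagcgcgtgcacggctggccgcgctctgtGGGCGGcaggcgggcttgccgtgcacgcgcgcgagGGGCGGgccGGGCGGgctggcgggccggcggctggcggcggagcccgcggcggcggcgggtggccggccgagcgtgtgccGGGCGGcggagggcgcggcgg
Rnf4: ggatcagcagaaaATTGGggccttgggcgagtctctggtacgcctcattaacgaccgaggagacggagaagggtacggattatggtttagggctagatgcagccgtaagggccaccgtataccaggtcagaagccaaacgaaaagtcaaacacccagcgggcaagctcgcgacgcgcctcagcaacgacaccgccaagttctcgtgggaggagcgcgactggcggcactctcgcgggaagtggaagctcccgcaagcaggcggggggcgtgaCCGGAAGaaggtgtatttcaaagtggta
Kdm2b: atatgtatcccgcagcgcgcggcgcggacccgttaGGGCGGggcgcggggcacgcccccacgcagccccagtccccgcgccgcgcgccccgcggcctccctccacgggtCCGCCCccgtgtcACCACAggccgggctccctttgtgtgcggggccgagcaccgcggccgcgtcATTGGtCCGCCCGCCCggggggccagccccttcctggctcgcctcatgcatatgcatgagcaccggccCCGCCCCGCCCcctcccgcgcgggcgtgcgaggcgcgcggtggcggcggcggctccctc
Prmt6: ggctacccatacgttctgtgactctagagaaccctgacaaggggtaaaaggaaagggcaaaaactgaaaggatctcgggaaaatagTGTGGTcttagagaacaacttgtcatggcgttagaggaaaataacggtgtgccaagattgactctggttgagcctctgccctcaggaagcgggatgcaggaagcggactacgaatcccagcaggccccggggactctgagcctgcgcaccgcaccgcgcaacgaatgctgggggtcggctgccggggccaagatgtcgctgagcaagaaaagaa
The Pf4 window held 3 CpG and the Kcnn4 window 6, against 55 in Mast2, 26 in Rnf4, 47 in Kdm2b and 16 in Prmt6. Over the windows matched, the median was 9 CpG for closing promoters and 21 for those in all lists. Mast2 held 6 matches to the GC box and Kdm2b also 6, whereas Pf4 held none. Kcnn4 held 4 matches to the RUNX core.

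The closing promoters left the lists at different times, and their presence in the 12 to 48 h lists was not part of the rule. Of the 496, 387 were in the 12 h list, 356 in that of 24 h, 289 in that of 36 h and 254 in that of 48 h. The absence of these 254 at 72 h is set by the rule. Counted by the end of the unbroken run from 0 h, 109 (22.0%) ended in the 8 h list and 84 (16.9%) in the 12 h list. Of the 109, 61 were listed again later. Runs of 79 (15.9%) ended in that of 24 h, of 50 (10.1%) in that of 36 h and of 174 (35.1%, 31.0 to 39.4%) in that of 48 h. The most frequent pattern was thus presence in every list to 48 h and absence from 72 h on. The 10568 lost distal regions were spread over the same times, with 17.3, 18.7, 16.9, 10.9 and 36.2%. With gaps allowed, 254 closing promoters (51.2%) had their last peak at 48 h and 48 (9.68%) had none in any list from 12 h on.

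**Figure D1:**
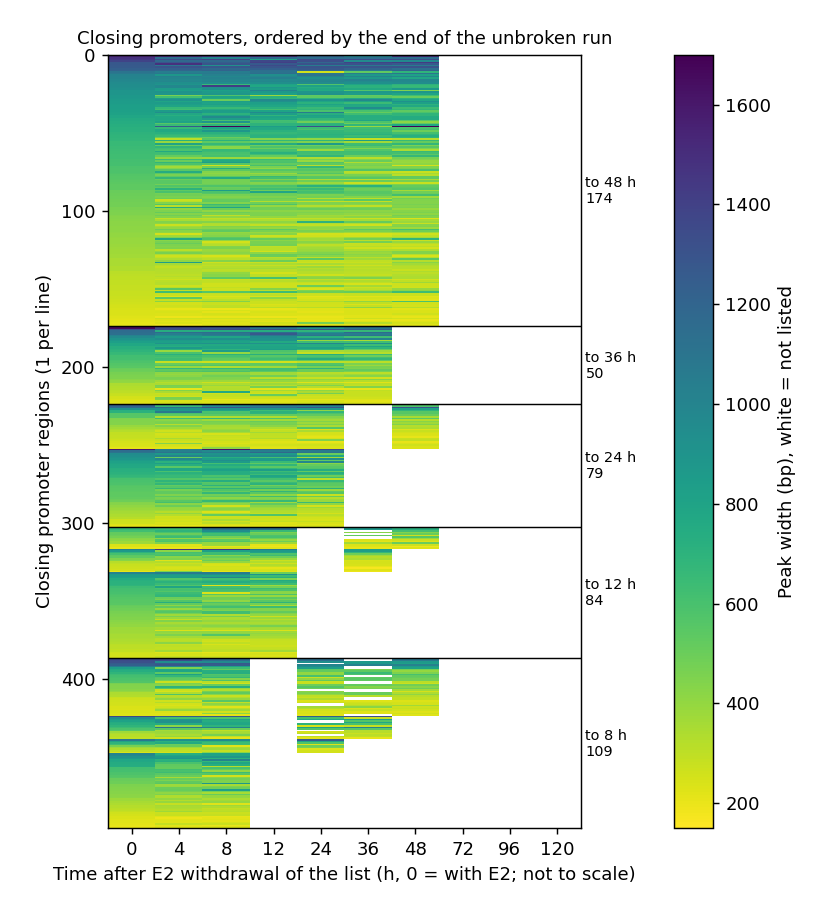
Presence and peak width (colour, bp) of the 496 closing promoters, 1 per line, in the 10 lists ordered by time after E2 withdrawal (h, not to scale); white means not listed. The largest block, 174 regions, runs unbroken to 48 h, and 109 regions end their first run at 8 h; the white columns at 72, 96 and 120 h are set by the rule.

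The lists were not steady from one time to the next. Of the closing promoters, 119 (24.0%) were missing from a list between 12 and 48 h and listed again later. Among all promoter regions, 8.24% of those in the lists on both sides of 12 h were missing at 12 h. The figure lay between 3.86 and 8.45% for the lists from 4 to 96 h. For regions at least 1000 bp wide in the list before, it lay between 4.21 and 11.1%. Of the 40 closing promoters at least 1000 bp wide at 0 h, 12 were relisted after a gap. Peak numbers in each list ran without a missing number. What removed wide peaks from single lists was not tested. The 72 h list weighed most on the set: without it, 1136 of the 8267 promoters (13.7%) met the rule, because 640 promoters were listed at 72 h and at neither later time.

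Closing promoters had narrow peaks. At 0 h their median width was 492 bp (quartiles 338 and 703, range 202 to 1686 bp), against 870 bp (710 and 1040) for the 5276 promoters in all 10 lists and 433 bp for the lost distal regions. Width was not in the rule. The lists carry no read counts, so the part of signal strength in this was not tested. The share that closed was 26.1% (23.2 to 29.1%) in the narrowest of 10 bins of the 8267 promoters (163 to 445 bp) and 12.3% in the next. It lay between 1.08 and 2.19% in the 5 widest bins. At a 0 h width of at least 1000 bp, 40 of 2515 closed (1.59%).

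**Figure D2:**
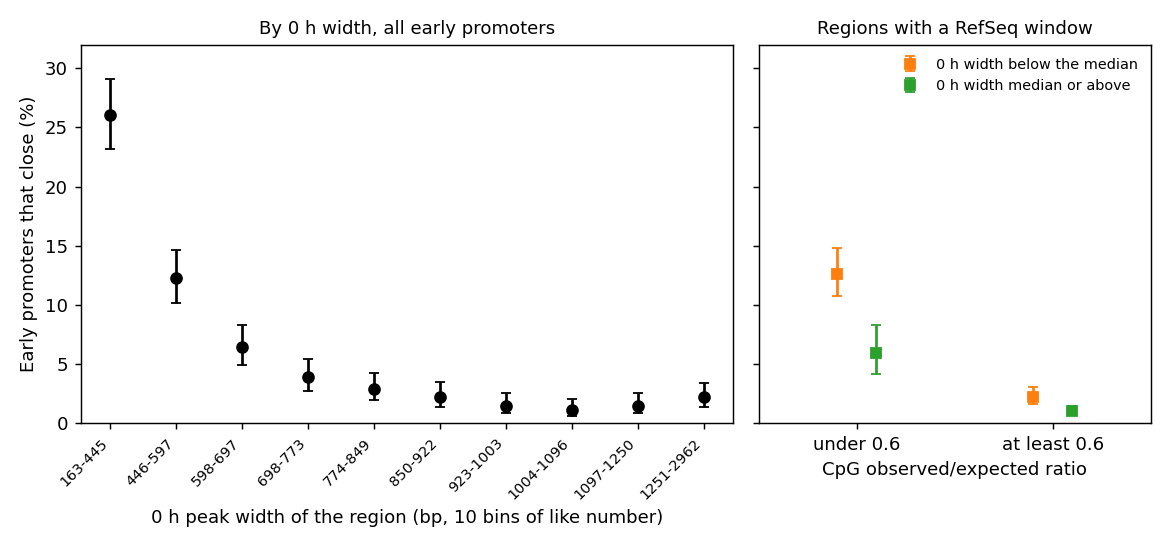
Left, share of promoters listed at 0, 4 and 8 h that closed (%), in 10 bins of the 0 h peak width (bp); right, the same share for regions with a RefSeq window, by CpG observed to expected ratio and by width below (orange) or at or above (green) the median of 849 bp; bars are 95% Wilson intervals. The share is 26.1% in the narrowest bin and under 3% from 774 bp on, and in both width groups it is higher where the CpG ratio is under 0.6.

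Peaks narrowed little before they left the lists. For the 174 closing promoters listed without a gap to 48 h, the median ratio of the 48 h width to the 0 h width was 0.925, and 126 of the 174 were narrower. The 5276 promoters in all lists also had narrower peaks at 48 h, with a median ratio of 0.955. Over all 496, the last peak listed had a median of 0.924 of the 0 h width and was narrower in 361. Mast2, which encodes a microtubule-associated serine/threonine kinase, is the widest example. Its promoter was 1622, 1577, 1609, 1606, 1555, 1519 and 1514 bp wide in the 7 lists from 0 to 48 h, and no peak was listed afterwards. Pf4 was the contrast, at 1355, 1273 and 1450 bp in the first 3 lists, none at 12 h, then 707, 367 and 309 bp at 24, 36 and 48 h. Its peaks after the gap were all narrower than those before it.

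**Figure D3:**
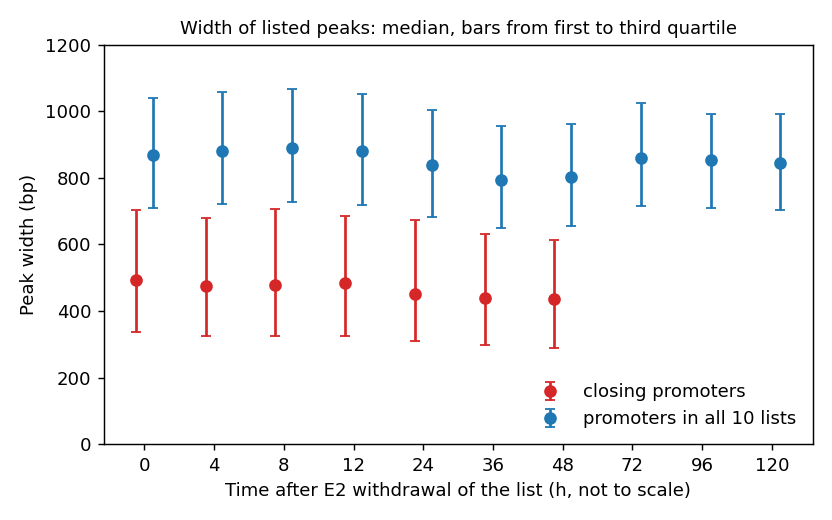
Width of the peaks listed at each time (bp; time in h, not to scale) for closing promoters (red) and promoters in all 10 lists (blue); points are medians and bars run from the first to the third quartile. Closing promoters have medians of 436 to 492 bp from 0 to 48 h, and the other set 795 to 890 bp.

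Closing promoters also lay farther from the TSS. Only 211 of the 496 (42.5%) had their widest peak within 200 bp of it, against 77.6% of the promoters in all lists, and 178 (35.9%) lay more than 500 bp away, against 3.51%. Read the other way, 3.64% of early promoters within 200 bp closed, 6.18% of those from there to 500 bp and 24.0% (21.0 to 27.2%) of those beyond 500 bp. The last group also had the narrowest peaks, with a median of 473 bp against 847 bp within 200 bp. By the deposited annotation, 318 closing promoters were promoter-TSS, 98 intronic, 32 in a 5′ UTR, 22 exonic, 17 in non-coding transcripts and 9 at a transcription end. In the last 50 bp inside the 1000 bp limit were 26 members with a median 0 h width of 327 bp, and in the first 50 bp outside it 20 lost regions with 453.5 bp.

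**Figure D4:**
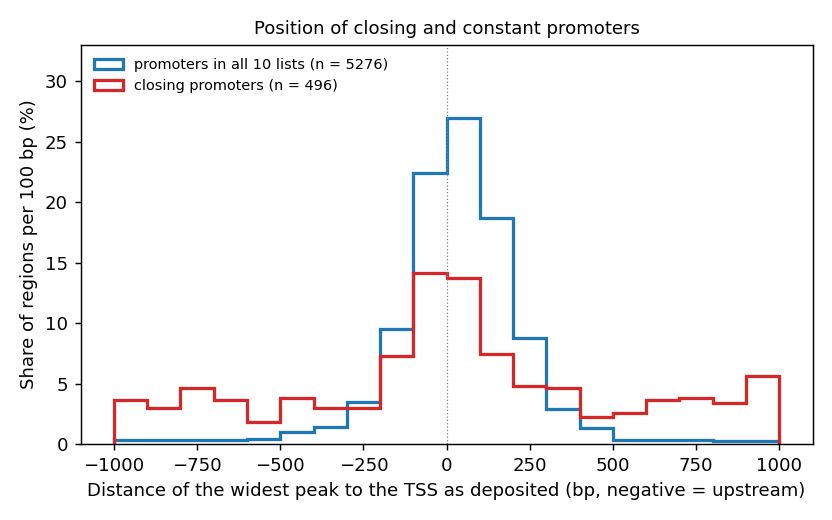
Distance of the widest peak to its TSS as deposited (bp, negative is upstream), as the share of regions per 100 bp (%), for 496 closing promoters (red) and 5276 promoters in all 10 lists (blue). The blue line peaks at the TSS; the red line has a lower peak there and stays above the blue one beyond 500 bp on both sides, where 35.9% of closing promoters lie.

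Some of these regions were not the only promoter region of their gene. Of the 496, 84 (16.9%) belonged to a gene with another promoter region listed at 120 h, whether or not that region was listed earlier. This share was not computed for the other early promoters. Among closing promoters it was 6.16% (13 of 211) within 200 bp of the TSS and 33.1% (59 of 178) beyond 500 bp. A late peak lay within 200 bp of 45 closing promoters and within 1000 bp of 122. At the gene level, 242 of the 486 genes had a region of some kind at 120 h, 85 had had no other region at 0 h, and 53 had gained one. Pgk1, a glycolysis gene, belongs to this kind: its region 793 bp into the gene was 400 bp wide at 0 h and left after 48 h, while the promoter at its TSS was in all 10 lists, 617 bp wide at 0 h and 698 bp at 120 h. Rel, a subunit of NF-kB, lost a 286 bp region 649 bp downstream and kept its promoter of 1150 bp at 0 h and 1079 bp at 120 h. Rara, the retinoic acid receptor alpha gene, lost a region of 540 bp upstream of 1 TSS. At another Rara TSS a region absent at 0 h was 259 bp wide at 12 h and 513 bp at 120 h.

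The p38 kinase gene Mapk14 and its activator Map2k6 were of the same kind. The closing Mapk14 region was 208, 220 and 208 bp wide at 0, 4 and 8 h, while the promoter beside it was 1021 bp wide with E2 and 854 bp wide at 120 h. For Map2k6 a region of 237 bp closed, and the promoter of another start site was 764 bp wide at 0 h and 691 bp at 120 h. Other genes with a second promoter at 120 h were the corepressor gene Tle6, the sialic acid synthesis gene Gne, Ripor2 and Tnfaip8, with closing regions of 721 to 859 bp. The second Ripor2 promoter was 338 bp wide at 0 h, absent from 8 to 48 h, and 639 bp wide at 72 h. Plxnb2, a semaphorin receptor gene, lost a region of 302 bp after 12 h. It had another promoter of 822 bp at 0 h and 368 bp at 120 h, which was absent at 48 and 72 h. Spns2, a transporter of sphingosine-1-phosphate, lost a region 918 bp into the gene and kept the one at its TSS, 494 bp wide at 0 h and 725 bp at 120 h. In these genes the closing region left the lists, while another region within 1000 bp of a TSS was listed at 120 h. The closing region was not always at a start site of its own, as the Spns2 region shows.

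Lymphoid genes were the fixed list with the highest share of closing promoters. Of 7 lymphoid promoter regions listed at 0, 4 and 8 h, 4 closed (57.1%, 25.0 to 84.2%), beside 6.00% over all genes. Cd79a and Cd79b encode the signalling chains of the B cell receptor. The Cd79a promoter (chr7:24897128-24897725) was 554, 570, 405 and 549 bp wide at 0, 4, 8 and 12 h and then absent. That of Cd79b (chr11:106314304-106314838) was 376, 457, 393 and 370 bp wide to 12 h, absent at 24 h, and listed again at 36 h with 367 bp and at 48 h with 506 bp. Igll1, a part of the surrogate light chain of the pre-B cell receptor, had 621, 591, 649 and 631 bp to 12 h and no peak in this region later. A second Igll1 region at -1490 bp from the TSS, 857 bp wide at 4 h, was 706 bp wide at 72 h and 347 bp at 120 h. Rag1, the recombinase gene, was the earliest, with 431, 407 and 350 bp at 0, 4 and 8 h. The peaks of Cd79a, Igll1 and Rag1 thus ended by 12 h, and that of Cd79b was interrupted but lasted to 48 h.

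Defining genes of lymphocytes were looked up beside these. Pax5 and Cd3e had no promoter peak in any list. Tcf7 had a promoter peak in every list but that of 120 h. Promoters of Meis1 and Flt3, stem cell genes, were listed at all 10 times that of Kit at 9 and that of Cd34 at 6. Of the neutrophil markers, Mpo had a promoter peak from 0 to 72 h, Ltf at 8, 96 and 120 h, and Elane, Ly6g and Cd177 had none. In bulk ATAC-seq, fewer cells of a type and less accessibility per cell cannot be told apart.

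**Figure D5:**
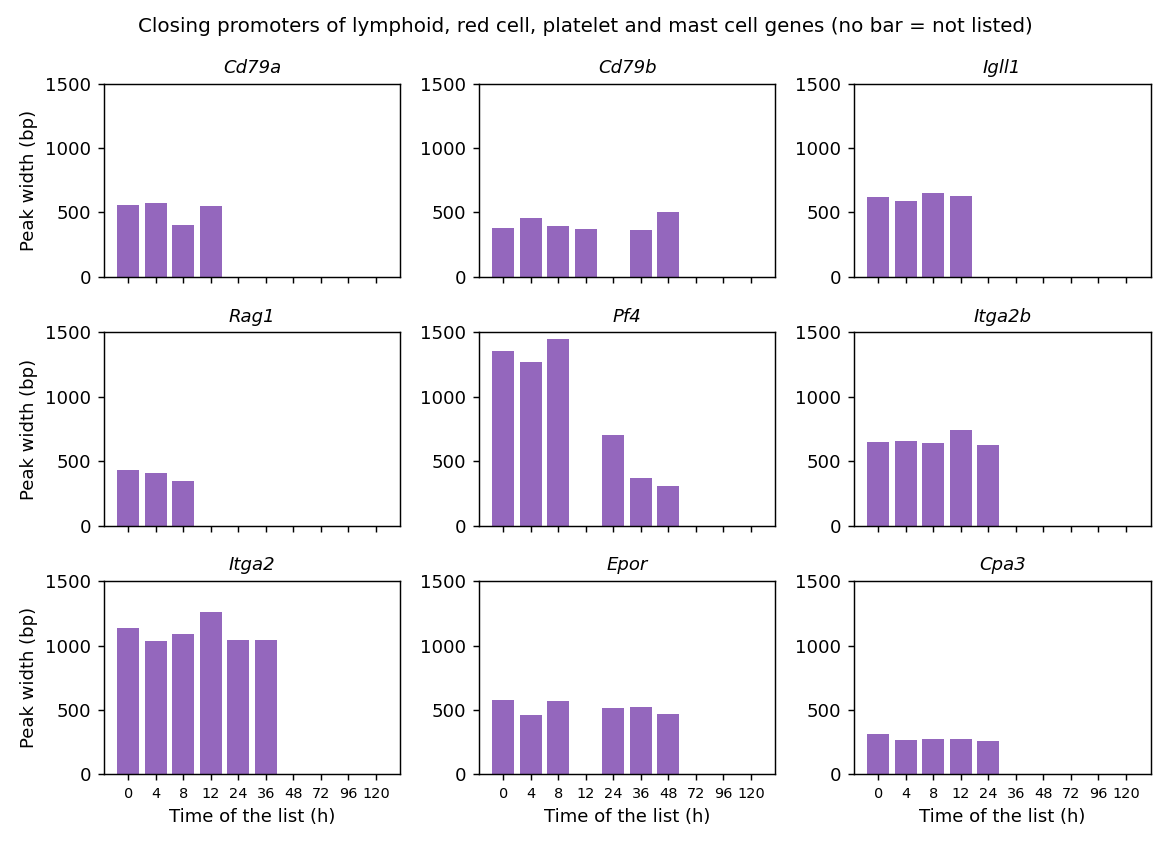
Peak width (bp, axis from 0) in each of the 10 lists (time in h) for 9 closing promoters of lymphoid, red cell, platelet and mast cell genes; 1 bar per list, no bar where no peak was listed. Rag1 ends at 8 h, Cd79a and Igll1 at 12 h, Itga2b and Cpa3 at 24 h, Itga2 at 36 h, and Cd79b, Pf4 and Epor have a gap and end at 48 h.

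Red cell and platelet genes came next. In the erythroid and megakaryocyte list, 4 of 10 early promoter regions closed (40.0%, 16.8 to 68.7%). Itga2b, the platelet fibrinogen receptor chain, had widths of 648, 660, 643, 746 and 628 bp from 0 to 24 h. Pf4, which encodes platelet factor 4 and is described above, lay on chromosome 5 near Cxcl3, a neutrophil chemokine gene. The Cxcl3 promoter was 245, 437, 230, 235 and 235 bp wide from 0 to 24 h, missing at 36 h and 229 bp wide at 48 h. Epor, the erythropoietin receptor, had 581, 462 and 574 bp at 0, 4 and 8 h, no peak at 12 h, and 515, 522 and 473 bp from 24 to 48 h. Among Itga2b, Pf4 and Epor, only Itga2b had no gap before its last peak. Gata1 and Klf1, the factors that define red cell precursors, had no promoter peak in any list.

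Mast cell and monocyte genes gave 1 closing promoter each, out of 8 (12.5%). Cpa3, the mast cell carboxypeptidase, had a narrow peak of 315, 271, 273, 277 and 256 bp from 0 to 24 h. A different Cpa3 region 842 bp upstream of the TSS was listed at 48 h alone, with 248 bp. F13a1, a clotting factor subunit that monocytes also make, had one of the wider closing promoters, at 1270, 1095, 915, 1352, 1054, 1085 and 1054 bp from 0 to 48 h. Both intervals, 2.24 to 47.1%, include the 6.00% of all genes. In the progenitor list 2 of 15 closed (13.3%, 3.74 to 37.9%): Spns2 and Angpt1, the ligand of the Tie2 receptor, whose region at the TSS was 397 bp wide at 0 h, 376 bp at 24 h and then absent. Another Angpt1 region, at -591 bp from the TSS, was listed to 72 h with 351 bp.

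Signalling, adhesion and channel genes closed at shares whose intervals also include that of all genes, except for adhesion and guidance with 4 of 22 (18.2%, 7.31 to 38.5%). These 4 were the integrin chains Itga2 and Itgb7, Plxnb2 and the netrin receptor gene Unc5a. Itga2, the collagen-binding chain found on platelets, was 1135, 1034, 1090, 1265, 1043 and 1041 bp wide from 0 to 36 h. Itgb7, a gut-homing integrin chain of lymphocytes, had a region of 725 bp at 0 h and 737 bp at 24 h in an intron, and a peak of 251 bp at its TSS in the 72 h list alone. Unc5a had 329 bp at 0 h and ended at 12 h, with a late peak 63 bp beside it. In the MAP kinase and small GTPase list 3 of 31 closed (9.68%), among them Rasgrp3, an activator of Ras and Rap, with 662 bp at 0 h and 324 bp at 36 h. In the ion channel list 2 of 20 closed (10.0%). Kcnn4, a calcium-activated potassium channel of blood cells, stayed listed to 48 h with 671, 709, 706, 666, 677, 829 and 648 bp. Cacna1g, a T-type calcium channel, was 548 bp wide at 0 h and ended at 36 h with 462 bp.

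Lists of the myeloid path gave counts whose intervals or limits include the 6.00% of all genes. In the neutrophil surface list 1 of 18 closed (5.56%), an intronic region of Clec4e, a C-type lectin receptor, with 558 bp at 0 h and a late peak 111 bp beside it. In the myeloid transcription factor list 1 of 38 closed (2.63%, 0.466 to 13.5%), the Rara region. Primary granule genes had 0 of 12 closing, which allows a share of up to 25.0%, and secondary and tertiary granule genes 0 of 8 (up to 37.5%). Interferon response genes had 0 of 21 (up to 14.3%). Targets of Hoxa9 and Meis1 had 0 of 18 (up to 16.7%), with a median 0 h width of 1220 bp, and chromatin regulators 0 of 29 (up to 10.3%) with 1038 bp. Cell cycle and replication genes had 0 of 38 (up to 7.89%), and 27 of these 38 regions were in all 10 lists. Non-blood genes had only 2 early promoter regions, and neither closed. The inflammatory list had 2 of 20 (Cxcl3 and Rel) and the housekeeping list 1 of 25 (Pgk1).

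The lists differ in peak width, so the counts are also given by width. Among all early promoters below the median width of 849 bp, 10.3% closed, and at or above it 1.69%. Lymphoid promoters below the median closed in 4 of 5 cases, and cell cycle promoters below it in 0 of 19, which allows up to 15.8%. Myeloid transcription factor promoters below the median closed in 1 of 24.

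Some members were also sorted by function after their names were seen, and the counts of these groups are descriptions. The groups were drawn from the members themselves. No number of early promoters per group was computed, so their counts cannot be set beside the 6.00% of all genes. Lymphocyte receptor and signalling genes numbered 14, among them the T cell kinase Txk, the adaptors Lax1, Sit1 and Grap2, the phosphatase genes Ubash3a and Ptpn7, Stat4 and the receptors Cd40 and Tnfrsf14 beside the 4 above. Their unbroken runs ended at 8 h in 3, at 12 h in 8, at 24 h in 1, at 36 h in 2 and at 48 h in 0. Cd79b and Lax1 were listed at 48 h after a gap, and the counts depend on which genes were put in the group. Cd40, the costimulatory receptor of B cells and macrophages, had the widest peak of these genes, 883 bp at 0 h and 942 bp at 24 h. Stat4, which carries interleukin-12 signals, had 257, 245, 233 and 231 bp to 12 h.

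Platelet, clotting and red cell genes numbered 10. Beside those named, they held the thrombin receptor genes F2rl2 and F2rl3 and the blood group enzyme gene Art4. F2rl3 was 958 bp wide at 0 h and 630 bp at 36 h, and F2rl2 498 and 520 bp at these times. Vessel wall genes also numbered 10, and 5 of them stayed listed to 48 h. Pecam1, the endothelial and platelet adhesion molecule, went from 479 bp at 0 h to 462 bp at 48 h, and Plvap, a protein of endothelial diaphragms, from 615 to 397 bp. Etv2, a master factor of blood and vessel progenitors, had a region 914 bp into the gene of 489 bp at 0 h and 441 bp at 48 h.

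G protein-coupled receptors made up 23 of the members. Of these, 9 ran unbroken to 48 h, near the share of all members (35.1%). Those with ligands of blood and vessels included the lysophosphatidic acid receptors Lpar2 and Lpar6, the sphingosine-1-phosphate receptor S1pr3 and the oxysterol receptor Gpr183. Lpar2 was 1273 bp wide at 0 h and 1265 bp at 48 h. Gpr183 was 374 bp wide at 0 h and 240 bp at 12 h and then absent. Receptors best known from neurons were present too, such as Drd1 (373 bp at 0 h, 445 bp at 48 h), Chrm4 (534 and 519 bp) and Htr1a (291 and 237 bp). Among the orphan receptor symbols beginning with Gpr, 5 of 22 early promoters closed (22.7%, 10.1 to 43.4%).

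Innate sensing and cytokine genes numbered 14, with a median 0 h width of only 286 bp, and 6 of them had another promoter region at 120 h. They included the nucleic acid sensor Tlr3 (904 bp at 0 h, 375 bp at 24 h), the peptidoglycan sensor Nod1 (250, 281 and 285 bp to 8 h) and the interferon factor Irf5 (238, 226 and 206 bp to 8 h). Transcription and chromatin factors numbered 23, and 9 had another promoter region at 120 h. Cebpg, a partner of the other C/EBP factors, had one of the widest closing promoters, 1388 bp wide with E2 and 967 bp in the 48 h list. The nearest late peak, 71 bp away, was a second Cebpg region, 257 bp wide in the 72 h list and absent from the later lists. Aff3, a gene of the AF4 family, had 1363, 1256 and 1292 bp at 0, 4 and 8 h, no peak at 12 h, and 1226 and 1325 bp at 24 and 36 h.

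Cilium genes numbered 9, among them Dnah11, a dynein arm motor (754 bp at 0 h, 482 bp at 48 h), Ccdc39 (380 and 251 bp) and the radial spoke gene Rsph14 (271 and 221 bp). Channel and transporter genes numbered 19, with the sodium channels Scn2a (328 bp at 0 h, 440 bp at 36 h) and Scn3a (238 bp at 0 h, 279 bp at 48 h) on chromosome 2. Solute carriers closed in 12 of 150 cases (8.00%), near the 6.00% of all genes. The organic cation transporter Slc22a3 had 1010 bp at 0 h and 810 bp at 48 h. By contrast, 2 of 234 zinc finger promoters (Zfp symbols) closed (0.855%), and none of 63 ribosomal protein promoters (up to 4.76%), 52 of the mitochondrial ribosome (up to 5.77%) or 33 of the proteasome (up to 9.09%).

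Non-coding genes were well represented. They held 81 of the closing promoters (16.3%) against 3.92% of the promoters in all lists, and 18.4% (15.1 to 22.3%) of early non-coding promoters closed, against 5.28% of protein-coding ones. MicroRNA symbols closed in 19 of 77 cases (24.7%, 16.4 to 35.4%). The 19 include the host gene Mir155hg. For the symbol of a microRNA itself the deposited start is that of the hairpin, so a region counted here can lie inside a longer primary transcript. Opposite strand transcripts closed in 8 of 33 cases and RIKEN and Gm loci in 60 of 500 (12.0%). Olfactory receptors closed in 4 of 12, and families of near-identical genes such as these can share reads. Of 18 microRNA members looked up, Mir155hg among them, 16 had a mature sequence in RefSeq. Shown are those of Mir130a, known from hematopoietic progenitors, of Mir129-1, and of Mir8109, whose region was the widest, with the seed (bases 2 to 8) in capitals.
miR-130a-3p: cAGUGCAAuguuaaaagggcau
miR-129-5p: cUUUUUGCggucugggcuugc
miR-8109: gCGCCGCGugccggccgcggg
No seed was shared among these 3. The Mir130a region (chr2:84740696-84741220) was 452, 515, 494, 448, 447, 440 and 457 bp wide from 0 to 48 h, and that of Mir129-1 362 bp at 0 h and 320 bp at 48 h. The Mir8109 region was 1223 bp wide at 0 h, absent at 12 h and 1020 bp wide at 48 h. Mir155hg, the host gene of miR-155, had 401, 382, 388 and 377 bp to 12 h and none later.

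The 8 widest closing promoters are those least near the limit of width. Mab21l1, a developmental gene, had 1686, 1676, 1674, 1683, 1695 and 1676 bp from 0 to 36 h and no peak afterwards. Gpr12, an orphan receptor, narrowed from 1661 bp at 0 h to 942 bp at 24 h, had 1110 bp at 36 h and left the lists. Rnf4, a SUMO-targeted ubiquitin ligase, had 1613, 1054, 1624, 1205 and 1372 bp to 24 h. Rtkn was 1546 bp wide at 0 h and 1506 bp at 48 h. Nudt19 went from 1480 to 1148 bp, Galnt6, a mucin-type glycosyltransferase, from 1451 to 1342 bp, and Mast2 and Cebpg as described. Except for Gpr12, Nudt19 and Cebpg, these promoters were still 1342 bp or wider in the last list that held them. They left between 1 list and the next, and the share of wide promoters missing from a single list, given above, was up to 11.1%.

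By time of leaving, the widest members were as follows. Aff3, Pf4 and Fam20a, a secretory pathway pseudokinase gene, had runs that ended at 8 h, and all were listed again. Fam20a had 1343 bp at 0 h and 1077 bp at 48 h. The ubiquitin ligase gene Rfwd3 (1045 bp at 0 h), Prrg4 (1015 bp) and Kctd17 (875 bp) ended at 12 h. Rfwd3 and Kctd17 were listed again at 36 h, with 823 and 836 bp, whereas Prrg4 was not. Runs that ended at 24 h were widest at Rnf4, Cuedc1 (1242 bp) and Necab3 (1215 bp), of which Cuedc1 was listed again at 48 h with 1245 bp and Necab3 with 578 bp. Klhl23, with 1353 bp at 0 h and 1237 bp at 36 h, had a late peak 55 bp beside it.

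Some genes lost more than 1 promoter region. The 3 regions of Tmem254a on chromosome 14 had 1009, 982 and 975 bp at 0 h and 987, 981 and 979 bp at 48 h. They lie in near-identical gene copies, where reads cannot be placed with certainty, so their values are uncertain and not independent. Serpinb6b, a protease inhibitor gene, had regions of 845 and 506 bp at 0 h, of which the first lasted to 48 h and the second to 8 h. Both regions of the laminin gene Lamb2 (590 and 289 bp), of Ppfia4 (586 and 237 bp), of Phactr3 (551 and 323 bp) and of the ligand gene Wnt10b (548 and 338 bp) closed, so these 4 genes had no promoter region left at 120 h.

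Regions elsewhere in the same genes were compared next. Phactr3 lost 9 regions of any kind and held 14 at 0 h and 0 at 120 h. Slc22a3 lost 8 of 9 and had 2 at 120 h. Auts2, a neurodevelopmental gene with Polycomb links, lost 7 of 22 and had 2 at 120 h, and Iqsec1 lost 7 of 17 and had 8. Aff3 lost 6 of 13 and had 1. The predicted gene Gm26391, annotated as rRNA, lost 7 of 25 and had none. Its regions at chr8:123538522-123539111 and chr8:123565908-123566318 lay at 94 and -30 bp from a TSS of this name. They thus belong to different start sites, and the Gm26391 counts are not those of 1 gene copy. Whether reads can be placed with certainty there was not tested. Over all genes with a closing promoter, 380 of 1050 early distal regions were lost (36.2%, 33.3 to 39.1%), against 2281 of 7784 (29.3%, 28.3 to 30.3%) for genes with a promoter in all lists and none closing. Within 50 kb of a closing promoter, 31.9% of early distal regions were lost (29.6 to 34.4%), against 27.2% near promoters in all lists and 27.5% near the other early promoters. Over all 31523 early distal regions the share lost was 33.5%. The intervals of the closing promoters, by gene and within 50 kb, both include this overall share. These intervals treat regions as independent, which neighbours are not.

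RefSeq windows of the assigned gene overlapped 224 of the 496 closing promoters (45.2%) and 77.8% of those in all lists. With fewer than 80% matched, a comparison of the whole sets is void, and the values below describe the matched windows only. Their median CpG observed to expected ratio was 0.43 for closing promoters and 0.80 for promoters in all lists, beside 0.38 for all 32841 windows. A ratio of at least 0.6, as in CpG islands, was found in 67 of 224 closing windows (29.9%, 24.3 to 36.2%), 80.3% of those in all lists and 35.8% of all windows. For protein-coding genes with the region within 200 bp of the TSS, 137 of 181 closing promoters were matched. Whatever the unmatched ones hold, the share with a ratio of at least 0.6 lay between 24.3 and 48.6% there, against 65.5 to 84.7% for promoters in all lists.

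This composition and the width were looked at together. Where the ratio was under 0.6, 12.6% of the early promoters narrower than the median closed and 5.89% of the wider ones. Where it was at least 0.6, these shares were 2.23 and 1.01%. Widths were not equal within these width groups: the median 0 h widths were 619 and 1009 bp where the ratio was under 0.6, and 716 and 1056 bp where it was not. Of the 67 CpG-rich closing promoters, 32 (47.8%) ran to 48 h without a gap, and of the 157 others 51 (32.5%).

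Motifs were searched as exact letters on both strands. The ETS core (CCGGAAG) stood in 7 of 224 closing windows (3.13%), 23.7% of those in all lists and 8.86% of all windows. At a CpG ratio of at least 0.6 the shares were 5.97% and 25.9%, and under 0.6 they were 1.91% and 15.1%. The bounds over unmatched promoters, 2.76 to 27.1% and 20.6 to 39.7%, overlap. The Rnf4 window above is one of the 7 with this core, 22 bases past the TSS. The PU.1 core (GAGGAAG) shares its last letters with the ETS core and stood in 15.6% of closing windows, 13.2% of those in all lists and 13.6% of all windows, a difference within the intervals.

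The RUNX core (TGTGGT) was more frequent in the closing windows, at 25.0% (56 of 224) against 12.2% in all lists and 16.8% of all windows. At a CpG ratio of at least 0.6 it stood in 13.4% of closing windows and 10.7% of the others, and under 0.6 in 29.9% and 18.5%. The AP-1 motif (TGANTCA) stood in 10.7% of closing windows against 4.31% of those in all lists, beside 7.81% of all windows. At a CpG ratio of at least 0.6 the AP-1 shares were 7.46% (3.23 to 16.3%) in closing windows and 3.46% in all lists. Under 0.6 they were 12.1% (7.89 to 18.1%) and 7.78%. For the GATA core (AGATAA) the shares in closing windows, all lists and all windows were 12.1, 6.05 and 11.2%, and the TATA box (TATAAA) gave 10.7, 6.24 and 13.6%. At a CpG ratio of at least 0.6 the GATA core stood in 2 of 67 closing windows (2.99%, 0.822 to 10.2%), against 5.04% in all lists. The TATA box also stood in 2 of 67 (2.99%, with the same interval), against 5.71%. The interval includes both shares in all lists.

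The GC box (GGGCGG) was less frequent in closing windows, at 46.4% against 68.7% in all lists and 35.7% of all windows. At a CpG ratio of at least 0.6 the shares were 73.1% and 74.1%, and under 0.6 they were 35.0% and 46.9%. The CCAAT box (CCAAT) gave 28.6, 42.6 and 37.4%. The E box (CACGTG) stood in 5.80% of closing windows against 11.3 and 7.15%. At a CpG ratio of at least 0.6 the E box shares were 7.46% (3.23 to 16.3%) in closing windows and 12.1% in all lists. Under 0.6 they were 5.10% (2.60 to 9.73%) and 7.90%. Both intervals include the share in all lists. For the CRE core (TGACGT) the shares were 7.59, 14.5 and 7.51%. Under a CpG ratio of 0.6 they were 7.01% in closing windows and 6.67% in all lists, and at or above it 8.96% and 16.4%. The Meis core (TGACAG) stood in 17.9% of closing windows and 17.3% of those in all lists, beside 19.2% of all windows, again within the intervals. A match is a string of letters and not a bound site.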

How the data were processed

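ATAC-seq peaks of 20 samples were analysed as 10 lists, 1 per time, each belonging to both replicates of that time. Per the file headers, the authors annotated the peaks with HOMER against mm10. The submitters' processing notes name BWA, MACS2 2.0, STAR 2.5 and mm9, with no roles. The sources used here do not say whether reads were pooled or shifted. Each peak has a position and a nearest TSS, and the deposited score was 0 for all 504887 peaks, so it was not used. Depth is unknown, since the lists hold no counts. P-values were not computed, because nothing gives the spread between replicates, which may be technical.

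Peaks sharing 1 bp or more were chained into regions. Position, gene and annotation were those of the widest peak, in mm10 coordinates counted from 1. The unbroken run ends at the last list before the first absence. Shares carry 95% Wilson intervals, and a count of 0 allows a share of 3 counts. Intervals and limits cover counting error only. RefSeq windows and microRNAs (GRCm38.p6) were matched by symbol and, for windows, by overlap with the region.

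The members and the 19 gene lists were chosen with earlier results of these data known, and the functional groups after the members' names were seen. Named genes were closing promoters of the lists (up to 4 each, widest first), the 8 widest, the 3 widest per run end, genes with 2 or more (up to 6), the 6 with most lost regions, the 5 widest with another promoter at 120 h and the 3 widest relisted. Others were named from the functional groups and families after their values were seen. Some genes that the rule or the marker list names are not reported here. The sorting of regions was tested on simulated data. Alternatives changed the overlap, promoter distance, annotation, list length, lists used and sex chromosomes. Tools were Python 3.11.15 with pandas 2.3.3, numpy 2.4.6, matplotlib 3.10.9 and scipy 1.17.1.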

Additional observations from a re-analysis of the deposited data

How the results depend on the processing

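Of 496 closing promoters, 318 lay within 500 bp of the TSS, and a limit of 2000 bp gave 837. Taking the widest 23620 peaks of each list gave 225, leaving out the 72 h list 1136, and asking for presence in every list from 0 to 48 h, an alternative chosen after seeing the data, 174. Asking for no late peak within 1000 bp, also added later, left 374. The share that closed, 6.00%, was 4.23% and 8.73% under these distances, 3.35% at equal list length and 5.50% over the widest 50% of each list. It was 7.04, 6.68, 7.22, 13.7 and 6.85% without the 0, 4, 8, 72 and 96 h lists, and 1.59% at a 0 h width of at least 1000 bp (added later). The share with an unbroken run to 48 h, 35.1%, was 29.8% at equal length, 30.3, 30.9 and 61.4% without the 0, 8 and 72 h lists, and 51.2% with gaps allowed (added later). The median 0 h width, 492 bp, was 556.5 and 447 bp under the 500 and 2000 bp limits, 731 bp at equal length and 686 bp over the widest 50%. The share whose gene had another promoter region at 120 h, 16.9%, was 7.23 and 27.6% under these limits, 8.89% at equal length and 8.03% over the widest 50%. For the alternatives that use fewer lists or another limit, the change follows from their construction, and otherwise the cause was not tested. The other alternatives moved these 5 values by less than their own spread or, for the number, by less than 1.5 times. No paired analysis was possible because both replicates of a time share 1 list. Leaving out a replicate could not be run for the same reason.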
